A study of Mus musculus with 6 samples.

Results

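The cells described here are those that the deposited annotation of CD4 T cell subsets calls Early Act. CD4, in lymph nodes of pregnant mice. They were found by that name, matched by barcode to the table of UMI counts (unique molecular identifiers, each standing for 1 captured transcript), and came to 188 of 7300 cells. The mice were 4 Aire-DTR and 3 WT dams mated to BALB/c males, and both genotypes received DT (diphtheria toxin) over the first 9 days of pregnancy. In Aire-DTR mice the toxin receptor is driven by Aire, so the toxin removes Aire-expressing cells wherever they are, while WT mice carry no receptor. Uterine-draining nodes (udLN) and brachial nodes (brLN), which drain the forelimb, were taken at E9.5, and sorted cells of several mice were tagged with hashtag antibodies and loaded together. In the deposited cell table, Aire-DTR mice 8, 36 and 7 carry the pregnancy phenotype IUGR (fetal growth restriction), and Aire-DTR mouse 4 carries the phenotype resorbed. Pool 1 held Aire-DTR mouse 8 and WT mouse 6, pool 2 held Aire-DTR mouse 36 and WT mouse 97, and pool LN held Aire-DTR mice 4 and 7 and WT mouse 1.

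The same 2127 cells of pool LN were in the table under 2 barcode suffixes of the same run label, with identical counts, mouse and node, beside other cells of that pool that were not copied. Each was counted once here, so 9427 deposited barcodes became 7300 cells and 244 members became 188. This touches mice 4, 7 and 1, and each test was also run on all barcodes as deposited. Apart from these copies, 208 cell barcodes occurred in more than 1 run, and 7 members carried such a barcode. The members held 693766 UMIs, with a median of 3513.5 UMIs per cell and a range of 480 to 8135. Aire-DTR mice gave 131 members, namely 16 in mouse 8, 36 in mouse 36, 35 in mouse 4 and 44 in mouse 7. WT mice gave 57 members, namely 13 in mouse 6, 21 in mouse 97 and 23 in mouse 1. There were 50 members in udLN and 138 in brLN. In the authors' broader annotation 176 members were CD4+ Mem T and 12 were CD4+ Treg.

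A T cell that meets its antigen signals through the T cell receptor and within hours transcribes a set of early genes, among them the nuclear receptor gene Nr4a1 and the zinc finger genes Egr1, Egr2 and Egr3. Surface proteins such as CD69, OX40 (Tnfrsf4), 4-1BB (Tnfrsf9) and CD40 ligand (Cd40lg) follow. Memory and effector T cells instead carry lasting high levels of Cd44, a hyaluronan receptor gene, and of S100 genes such as S100a6. CD4 and CD8 are the coreceptors of helper and cytotoxic T cells, and a mature conventional T cell keeps 1 of them. Cd8a and Cd8b1 encode the chains of the CD8 coreceptor. In build GRCm38, Cd8b1 (chr6:71322788-71337494) and Cd8a (chr6:71373427-71379173) lie close together on the plus strand, and Cd4 (chr6:124864692-124888221) lies on the minus strand of the same chromosome.

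Since the class is led by Nr4a1 and Egr genes, the 250 bases upstream of the RefSeq starts of Nr4a1 and Egr2 are printed, from build GRCm38.p6. Capitals mark the matches of the motifs that were searched on both strands. These were TGACG, the core that CREB-family factors recognise, GCGGGGGCG, the site of EGR factors, and the CArG box, the site of serum response factor. TGACGTCA, TGANTCA (the AP-1 site) and GGAAAA (the NFAT core) were searched as well and had no match in either window. For Nr4a1 the window is chr15:101266596-101266845 on the plus strand, and for Egr2 it is chr10:67537619-67537868 on the plus strand, upstream of the middle one of 5 listed starts.
Nr4a1: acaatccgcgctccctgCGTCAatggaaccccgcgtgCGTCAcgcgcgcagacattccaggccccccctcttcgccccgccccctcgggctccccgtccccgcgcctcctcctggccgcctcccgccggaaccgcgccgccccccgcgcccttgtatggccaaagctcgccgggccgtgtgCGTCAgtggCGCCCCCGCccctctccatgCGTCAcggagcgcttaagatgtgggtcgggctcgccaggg
Egr2: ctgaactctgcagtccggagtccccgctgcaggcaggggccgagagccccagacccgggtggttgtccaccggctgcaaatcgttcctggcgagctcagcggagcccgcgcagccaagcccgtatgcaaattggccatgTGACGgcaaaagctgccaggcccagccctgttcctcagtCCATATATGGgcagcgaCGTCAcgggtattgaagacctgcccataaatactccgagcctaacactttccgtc
The Nr4a1 window held CGTCA, which is TGACG on the minus strand, 4 times, beginning at bases -233, -213, -69 and -40 from the start site, and CGCCCCCGC, the EGR motif on the minus strand, at base -60. The Egr2 window held TGACG at base -111 and CGTCA at base -55, and a CArG box, CCATATATGG, from base -72 to base -63. These matches do not overlap, and the CArG box reads alike on both strands. Of 32851 promoter windows of the same length, 17.8% held TGACG, 2.57% held GCGGGGGCG, 1.47% held a CArG box, 1.55% held TGACGTCA, 6.75% held TGANTCA and 20.4% held GGAAAA. The matches describe these letters and were not tied to binding, which was not measured.

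Compared with the naive classes, members carried high levels of early genes that T cell receptor signals induce. The signal itself was not measured. Counts were summed per mouse and are given as CPM, a gene's UMIs relative to all UMIs of that sum. Because the annotation was made from these cells' expression, the class is set against other classes as a description, with no test. In such sums, fewer cells with a transcript and less transcript per cell cannot be told apart. Nr4a1 stood at 251, 339, 378 and 205 CPM in members of Aire-DTR mice 8, 36, 4 and 7, and at 118, 769 and 193 CPM in members of WT mice 6, 97 and 1. All 7 values lay above the highest of CD4+ Naive T cells, 15.5 CPM. The mean was 322 ± 216 CPM in members against 5.06 ± 5.03 CPM in the CD4+ Naive T class and 1.55 ± 1.19 CPM in the CD8+ Naive T class (SD, n = 7 mice). Egr1 stood at 402, 738, 278 and 243 CPM in members of Aire-DTR mice 8, 36, 4 and 7, and at 411, 469 and 482 CPM in members of WT mice 6, 97 and 1, with a mean of 432 ± 163 CPM against 23.8 ± 13.7 CPM in CD4+ Naive T cells. Egr2 averaged 114 ± 68.2 CPM in members and 0.40 ± 0.712 CPM in CD4+ Naive T cells. For Egr3 the means were 133 ± 46.4 and 0.862 ± 1.22 CPM, again members first.

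Further genes showed the same order, with members above the naive classes. Nfkbid, which encodes a nuclear IkB protein, averaged 275 ± 107 CPM in members and 21.4 ± 7.97 CPM in CD4+ Naive T cells. Id3, an inhibitor of E proteins, averaged 763 ± 120 CPM in members and 114 ± 34.3 CPM in CD4+ Naive T cells. The costimulatory receptor gene Tnfrsf9 averaged 155 ± 57.2 CPM in members and 5.28 ± 3.69 CPM in CD4+ Naive T cells. Tnfrsf4 averaged 212 ± 133 CPM in members, 16.1 ± 4.60 CPM in the CD4+ Naive T class and 1.11 ± 0.769 CPM in the CD8+ Naive T class. Cd69, whose product holds newly stimulated cells in the node, averaged 550.3 ± 233 CPM in members, 126 ± 33.1 CPM in the CD4+ Naive T class and 148 ± 19.2 CPM in the CD8+ Naive T class.

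**Figure D1:**
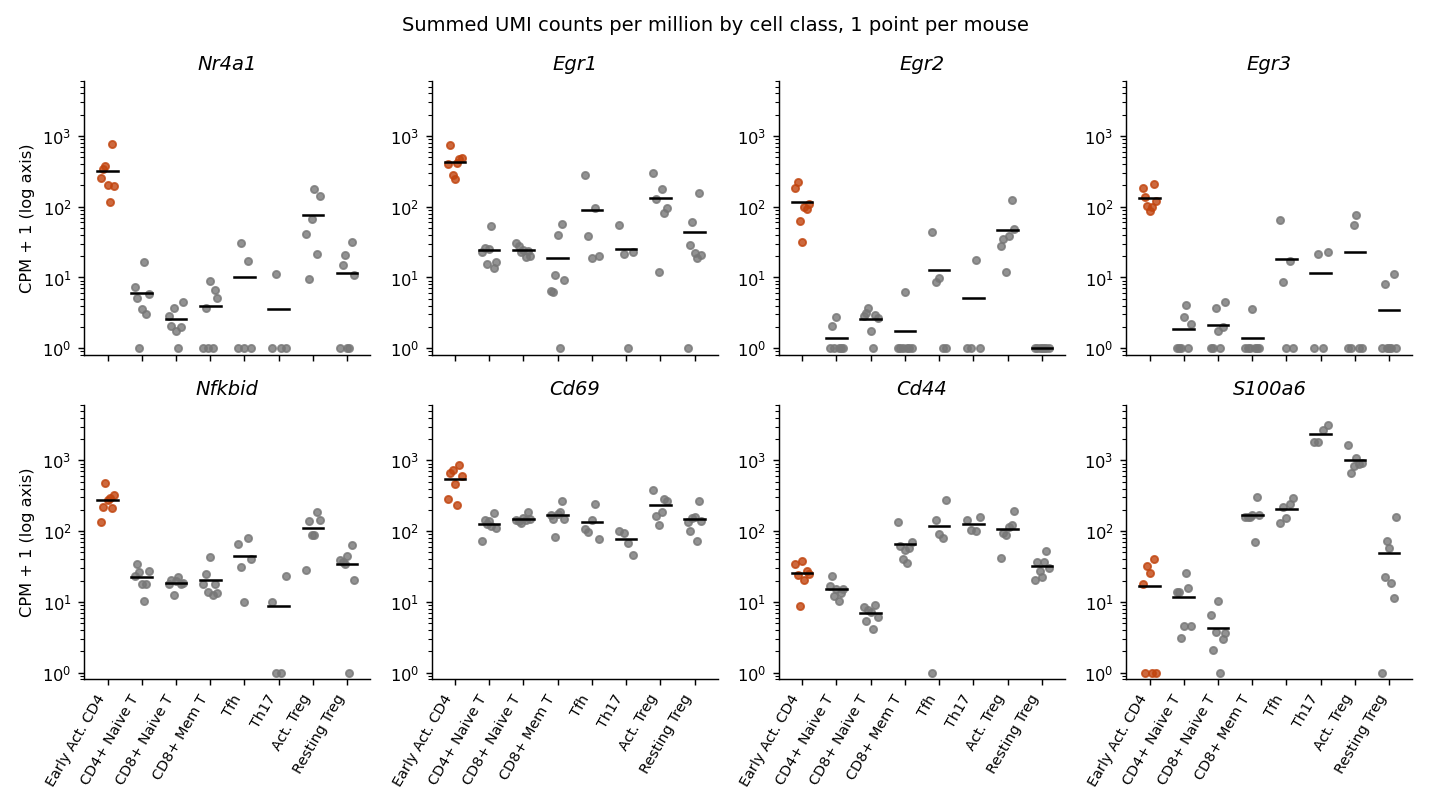
Levels of 8 genes by cell class, as CPM plus 1 on a log axis, with 1 point per mouse with at least 10 cells of the class and a bar at the mean. Early Act. CD4 members are at the left of each panel; their Nr4a1, Egr1, Egr2, Egr3 and Nfkbid points lie above those of both naive classes, while Cd44 and S100a6 average 24.4 and 15.9 CPM, below the means of the memory, helper and Treg classes.

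Among genes of at least 100 CPM in the higher class, 47 of 1445 (3.25%) were over 2-fold higher in members than in CD4+ Naive T cells and higher in every mouse, and 14 (0.969%) were over 2-fold lower and lower in every mouse. After adding 10 CPM to each level, the largest mean log2 ratios were 4.30 for Nr4a1, 3.71 for Egr1, 3.67 for Egr3, 3.39 for Tnfrsf9 and 3.38 for Egr2. Next came Cd8a at 3.34, Nkg7, a granule protein gene of CD8 T and NK cells, at 3.25, Nfkbid at 3.14, Marcksl1 at 2.89 and the survival gene Bcl2a1b at 2.84. The lowest were Pdlim4 at -2.14, Ly6c1 at -1.98, Rflnb at -1.49, the glucocorticoid-induced gene Tsc22d3 at -1.38 and Igfbp4, a gene of naive CD4 T cells, at -1.27. S1pr1, the receptor with which T cells leave a node, followed at -1.18, and then Arl4c at -1.13, Fam78a at -1.11, Kbtbd11 at -1.10 and Tecpr1 at -1.07. Igfbp4 still averaged 535 ± 185 CPM in members, against 1244 ± 118 CPM in the CD4+ Naive T class and 404 ± 90.8 CPM in the CD8+ Naive T class.

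Against CD8+ Naive T cells, 50 of 1423 genes (3.51%) were over 2-fold higher and 22 (1.55%) over 2-fold lower in every mouse. The leading genes that were higher in members were Nr4a1 with a mean log2 ratio of 4.63, Tnfrsf4, Cd4 at 3.81, Cd40lg at 3.75 and Egr1 at 3.67, then Egr3, Itm2a, Tnfrsf9, Nfkbid and Egr2. The leading genes that were lower in members were Ly6c2 at -2.49, Tmem108 at -2.40, Cd8b1 at -2.37, the NK receptor gene Klrd1 at -2.33, Nkg7 at -2.19 and Cd8a at -2.08, then Cd7, Cxcr6, Plac8 and Arl4c.

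Whole lists were counted as well, as a description. They were chosen with earlier results of these data known, and the class was named from the same expression, so they give no separate support. Of 25 genes of T cell activation, 24 were higher on average in members than in CD4+ Naive T cells and 19 were higher in every mouse, with a median log2 ratio of 1.58. Over all 7267 genes compared, 3156 were higher on average, 338 were higher and 280 lower in every mouse, and the median was -0.07. Of 18 genes of naive and quiescent T cells, 9 were lower in every mouse, with a median of -0.68. Among them the homing receptor gene Ccr7 averaged 314 ± 93.1 CPM in members and 632 ± 52.3 CPM in CD4+ Naive T cells, Lef1 387 ± 62.1 and 628 ± 27.6 CPM, and Tcf7 219 ± 52.7 and 426 ± 36.6 CPM, members first. Of 19 genes of memory and migration, 0 were higher and 2 lower in every mouse, with a median of -0.01. Of 17 cell cycle genes 3 were higher on average, with a median of -0.06, and Mki67, a gene of dividing cells, had 1 UMI in all 188 members. Of 14 immediate early genes of the AP-1 group, 12 were higher on average, 4 were higher and 1 lower in every mouse, and the median was 0.33.

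The 4 genes given as markers of the class split. Cd4 stood at 184, 181, 162 and 155 CPM in members of Aire-DTR mice 8, 36, 4 and 7 and at 196, 104 and 145 CPM in members of WT mice 6, 97 and 1. Its mean of 161 ± 30.7 CPM compared with 223 ± 35 CPM in the CD4+ Naive T class and 2.22 ± 2.51 CPM in the CD8+ Naive T class. Cd8b1 averaged 393 ± 169 CPM in members, 54.6 ± 16.4 CPM in the CD4+ Naive T class and 1895 ± 77.0 CPM in the CD8+ Naive T class. Cd8a averaged 189 ± 91.4 CPM in members, 8.34 ± 5.78 CPM in the CD4+ Naive T class and 749 ± 26.8 CPM in the CD8+ Naive T class. The activation markers Cd44 and S100a6 rested on 17 and 12 UMIs over all members. Cd44 averaged 24.4 ± 9.63 CPM in members and 14.1 ± 4.07 CPM in CD4+ Naive T cells, and S100a6 averaged 15.9 ± 16.3 CPM in members and 10.5 ± 8.14 CPM in CD4+ Naive T cells. In CD8+ Naive T cells they averaged 5.84 ± 1.76 and 3.32 ± 3.16 CPM, and in Th17 cells 126 ± 28.0 and 2392 ± 684 CPM, Cd44 first. Early activation genes were high, as the name has it, but Cd44 and S100a6 were below the means of each memory, helper and Treg class, and CD8 transcripts were present, which goes against a class of CD4 cells alone; it is called here by its deposited name only.

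Set against the differentiated T cells, members were low in genes that define those subsets. Against Tfh cells, the follicular helpers, 46 of 1646 genes (2.79%) were over 2-fold higher and 67 (4.07%) over 2-fold lower in every one of 5 mice, with Maf, Cxcr5, Tigit, Asb2 and S100a6 lowest in members. In those mice Cxcr5, the receptor that guides cells to B cell follicles, averaged 9.60 ± 13.2 CPM in members and 214 ± 63.9 CPM in Tfh cells. Against Th17 cells, 84 of 1675 genes (5.01%) were over 2-fold higher and 123 (7.34%) over 2-fold lower in every one of 4 mice. S100a4 had no UMI in members and averaged 610 ± 157 CPM in Th17 cells, and S100a6 averaged 13.9 ± 16.3 CPM in members of those 4 mice and 2392 ± 684 CPM in Th17 cells. Against CD8+ Mem T cells, 63 of 1452 genes (4.34%) were over 2-fold higher and 40 (2.75%) over 2-fold lower in every mouse. There the chemokine gene Ccl5 averaged 5.76 ± 5.76 CPM in members and 2956 ± 801 CPM in CD8+ Mem T cells. Il23r, Ifng, Gzmb and Gzmk, genes of Th17, Th1 and cytotoxic cells, had no UMI in any member. Other cytotoxic genes were present, and Nkg7 averaged 191 ± 92.1 CPM in members. Of 15 cytotoxic genes, 9 were higher on average in members than in CD4+ Naive T cells and 3 in every mouse. Over all 7267 genes compared these counts were 3156 and 338. Against CD8+ Mem T cells, 1 of the 15 was higher on average and 8 were lower in every mouse, with 4239 and 263 of all 7180 genes.

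Act. Treg cells, the activated regulatory T cells, also carried activation genes at high levels. Of the 25 activation genes, 6 were higher and 5 lower in every one of 6 mice when members were set against Act. Treg cells. The counts were 282 higher and 651 lower over all 7620 genes compared. The summed level of the 25 activation genes averaged 5206 CPM in members, 6570 CPM in Act. Treg, 1544 CPM in the CD4+ Naive T class and 940.4 CPM in the CD8+ Naive T class. Tnfrsf4 averaged 1577 ± 537 CPM in Act. Treg cells (n = 6 mice) and 212 ± 133 CPM in members (n = 7 mice). In Resting Treg cells it averaged 343 ± 93.4 CPM (n = 7 mice), and in Tfh cells 272 ± 225 CPM (n = 5 mice). Tnfrsf9 averaged 446 ± 135 CPM in Act. Treg cells and 155 ± 57.2 CPM in members. Nr4a1 averaged 356 ± 215 CPM in members of those 6 mice and 75.3 ± 68.2 CPM in Act. Treg cells. Foxp3, the master regulator of Treg cells, averaged 29.9 ± 23.6 CPM in members and 456 ± 83.8 CPM in Act. Treg cells there, and 31.3 ± 21.9 CPM in members and 480.2 ± 136 CPM in Resting Treg cells over 7 mice. Against Act. Treg cells 47 of 1715 genes (2.74%) were over 2-fold higher in members, led by the naive-cell genes Igfbp4 and Dapl1, and 139 (8.1%) were over 2-fold lower, led by S100a6, Tigit, S100a4, Maf and Ikzf2. Against Resting Treg cells 58 of 1540 genes (3.77%) were over 2-fold higher, led by Nr4a1, Egr3, Egr1 and Egr2, and 59 (3.83%) were over 2-fold lower, led by Foxp3 and Rgs1.

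Markers of other cell types were also present at some level in members. Summed over each list, B cell markers ranged over 180 to 347 CPM in Aire-DTR and 130 to 255 CPM in WT mice, NK markers over 0 to 12.4 and 0 to 48.2 CPM, and gamma delta T markers over 0 to 50.2 and 0 to 26.1 CPM. Myeloid markers ranged over 100.4 to 239 CPM in Aire-DTR and 118 to 222 CPM in WT mice, and red cell markers over 15.4 to 703 and 0 to 686 CPM. The list of NKT and innate-like cells, which holds Ly6c2, Klrd1, Il2rb and Ikzf2 that other T cells also express, ranged over 66.9 to 354 CPM in Aire-DTR and 137 to 506 CPM in WT mice. Ncr1, Klrb1c, Zbtb16, Lyz2, Csf1r and Itgam were at 0 in all members, and 6 of 188 members had a UMI of the B cell gene Cd79a. Members used 82 of 93 T cell receptor alpha and beta V segments measured, and the leading segment held 8.43% of 2206 V segment UMIs.

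A UMI of Cd8a or Cd8b1 was found in 62 of 188 members (33.0%). The same share was 9.22% in CD4+ Naive T cells at a median of 2903 UMIs per cell, 99.2% in CD8+ Naive T cells at 3446.5 UMIs, and 4.37% in B cells, which do not express the genes, at 2261 UMIs. After thinning each cell to 1000 UMIs, the shares were 28.3% in members, 3.51% in CD4+ Naive T, 90.7% in CD8+ Naive T and 2.76% in B cells. Most members had either no CD8 UMI or 4 or more, with few between. No CD8 UMI was seen in 126 members, 1 in 9, 2 in 5 and 3 in 2, while 46 members (24.5%) had 4 or more. That share was 1.06% in CD4+ Naive T, 92.5% in CD8+ Naive T and 2.16% in B cells. The 49 B cells with 4 or more had a median of 6169 UMIs. These 46 members held 94.3% of the 442 CD8 UMIs of the class. The median was 7 CD8 UMIs per member with any, and 9 per CD8+ Naive T cell.

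**Figure D2:**
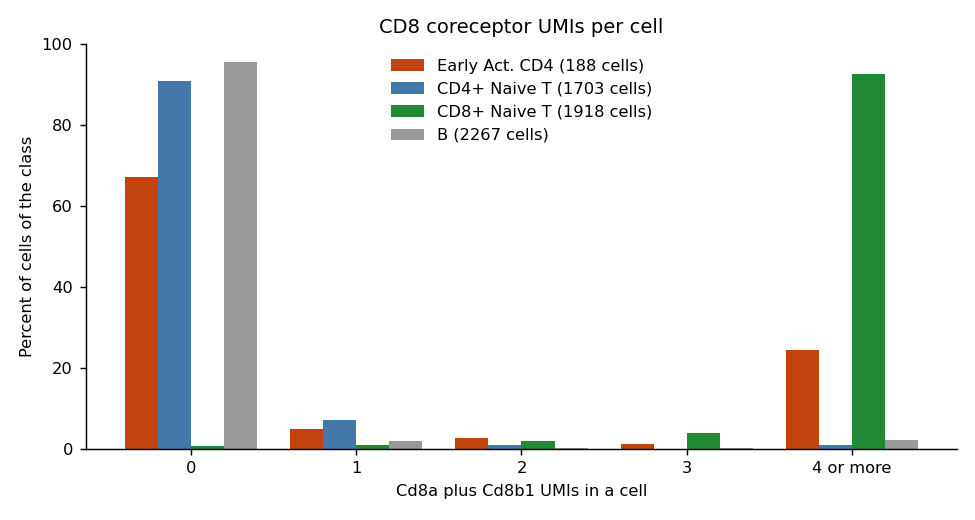
Share of cells of 4 classes by their number of Cd8a plus Cd8b1 UMIs. Members fall mostly at 0 UMIs (126 of 188) and at 4 or more (46 of 188), with 9, 5 and 2 at 1, 2 and 3 UMIs. CD4+ Naive T and B cells fall mostly at 0.

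The coreceptor transcripts were nearly separate within the class. A CD8 UMI and no Cd4 UMI was found in 55 members (29.3%), a Cd4 UMI and no CD8 UMI in 62 (33.0%), both in 7 (3.72%) and neither in 64 (34.0%). The 7 members with both had a median of 6114 UMIs, against 3760 in those with CD8 UMIs only and 3906 in those with Cd4 UMIs only. Cd4 UMIs were seen in 7 of 62 members with a CD8 UMI (11.3%), in 62 of 126 other members (49.2%) and in 44.7% of CD4+ Naive T and 0.782% of CD8+ Naive T cells. Doublets among the 7 members with both transcripts were not tested for.

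Both kinds of members carried the early activation genes. A UMI of at least 1 of Nr4a1, Egr1, Egr2 and Egr3 was found in 46 of 62 members with a CD8 UMI (74.2%, 95% Clopper-Pearson interval 61.5 to 84.5) and in 70 of 126 other members (55.6%, 46.4 to 64.4). In naive cells the share was 7.51% in CD8+ Naive T and 5.81% in CD4+ Naive T cells, and it was 11.3% in B cells. Intervals cover counting error only. The depth of the kinds differed, with a median of 3873 UMIs in members with and 3420.5 UMIs in members without a CD8 UMI. After thinning to 1000 UMIs the shares were 46.8% (29 of 62) in members with a CD8 UMI, 36.8% (46 of 125) in other members, 2.57% in CD8+ Naive T, 2.74% in CD4+ Naive T and 5.57% in B cells. Cd69 UMIs were seen in 49 of 62 members with a CD8 UMI (79.0%) and in 73 of 126 other members (57.9%).

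Members with a CD8 UMI were then set against CD8+ Naive T cells, and the others against CD4+ Naive T cells. Of the 126 others, 64 had no Cd4 UMI, so their coreceptor was not seen. Members with a CD8 UMI had 24 of 25 activation genes higher on average than CD8+ Naive T cells and 16 higher in every one of 3 mice, with a median log2 ratio of 1.57. Over all 12758 genes compared, 4230 were higher on average and 1027 in every mouse, and the median was -0.10. Members without one had 25 of 25 higher on average than CD4+ Naive T cells and 15 higher in every one of 6 mice, with a median of 1.67. Over all 13036 genes compared, 4400 were higher on average and 352 in every mouse, and the median was -0.09. These 2 backgrounds hold every gene with a UMI in either group, while the 7267 genes compared for the whole class leave out low ones. They are therefore weighted to genes near 0, and 2730 of the 12758 were lower in every mouse. Among genes of at least 100 CPM, 47 of 1460 (3.22%) were over 2-fold higher in every mouse in the first comparison and 51 of 1484 (3.44%) in the second, while 10 (0.685%) and 20 (1.35%) were over 2-fold lower. The first rested on mice 36, 4 and 7, which had 14 members with a CD8 UMI each.

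The kinds were tested against each other in those 3 mice, all Aire-DTR, with the mouse as a block and without Cd8a and Cd8b1, which set the split. Of 893 genes, 29 (3.25%) passed an adjusted p of 0.05 (edgeR quasi-likelihood test), 12 (1.34%) higher and 17 (1.9%) lower in members with a CD8 UMI, and 4 of them were T cell receptor segments. No p is given for a gene that met the filter on low counts only in the kind where it was high. The 29 include such genes, Nkg7 and Tnfrsf9 among them. Nkg7 was at 761, 669 and 489.5 CPM in members with a CD8 UMI of mice 36, 4 and 7, and at 0 in all other members of the 3 mice. Over all 7 mice it had 147 UMIs in 42 of 62 members with a CD8 UMI (67.7%) and 0 UMIs in 126 other members, which allows a share of up to 2.38%. Its UMIs were found in 84.8% of CD8+ Naive T, 1.82% of CD4+ Naive T and 2.91% of B cells.

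The other genes that were higher in members with a CD8 UMI were led by a cytotoxic protease gene. Ctsw, cathepsin W of CD8 T and NK cells, was at 260.0, 234 and 544 CPM in members with a CD8 UMI of mice 36, 4 and 7, and at 63.4, 57.2 and 37.9 CPM in other members (log2 difference 2.79, SE 0.429). Selplg, the gene of the selectin ligand PSGL-1, was at 798, 518 and 381 CPM in members with a CD8 UMI and at 216, 186 and 142 CPM in other members (1.66, SE 0.228, edgeR adjusted p = 0.0012). The interferon-responsive gene Epsti1 was at 353, 318 and 272 CPM in members with a CD8 UMI and at 38.1, 85.8 and 104 CPM in other members. None of the 3 genes overlapped between the kinds, as held for 153 of all 893 genes tested (17.1%). Tagln2 (log2 difference 1.65), Acp5 (1.74), Dnajc15 (1.63), Crip1 (1.04), Thy1 (0.75) and Ms4a4b (0.74) also passed.

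Genes lower in members with a CD8 UMI included Cd4, Itm2a and Izumo1r. Cd4 was at 0, 83.6 and 18.1 CPM in members with a CD8 UMI of mice 36, 4 and 7, and at 304, 229 and 227 CPM in other members (log2 difference -2.76, SE 0.590). Itm2a, a membrane protein gene induced by T cell receptor signals, was at 0, 83.6 and 72.5 CPM in members with a CD8 UMI and at 533, 1187 and 483 CPM in other members (-3.73, SE 0.368). Izumo1r, which encodes folate receptor 4 of CD4 T cells, was at 92.8, 50.2 and 90.7 CPM in members with a CD8 UMI and at 355, 358 and 464 CPM in other members (-2.27, SE 0.323). The kinds did not overlap in these 3 genes either. Ly6a (log2 difference -1.93), Cd53 (-1.04), Tmem258 (-1.15), the glycolytic gene Pkm (-0.94), Bzw1 (-1.24) and Ndfip1 (-0.83) also passed.

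Of the activation list, only Tnfrsf9 was past the threshold between the kinds, and it met the filter on low counts only in the other members. It was at 0, 33.5 and 0 CPM in members with a CD8 UMI of mice 36, 4 and 7 and at 216, 315 and 246 CPM in other members (log2 difference -4.26, SE 0.668). Because of that filter no p is given for it, and its values are a description. In the naive classes its levels were close, 4.76 CPM in CD8+ Naive T and 5.28 CPM in CD4+ Naive T cells. Of 13 activation genes tested, 3 were higher and 10 lower in members with a CD8 UMI, with a median log2 difference of -0.51, against -0.03 over all 893 genes. Nr4a1 was at 92.8, 351 and 145 CPM in members with a CD8 UMI and at 507, 400.4 and 237 CPM in other members, lower in 3 of 3 mice, and did not pass (-0.91, SE 0.337, edgeR adjusted p = 0.199). Egr1 (log2 difference 0.42, adjusted p = 0.373), Cd69 (0.29, 0.629) and Nfkbid (-0.14, 0.853) did not pass either. Egr2, Egr3, Cd44 and S100a6 were too low to be tested.

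**Figure D3:**
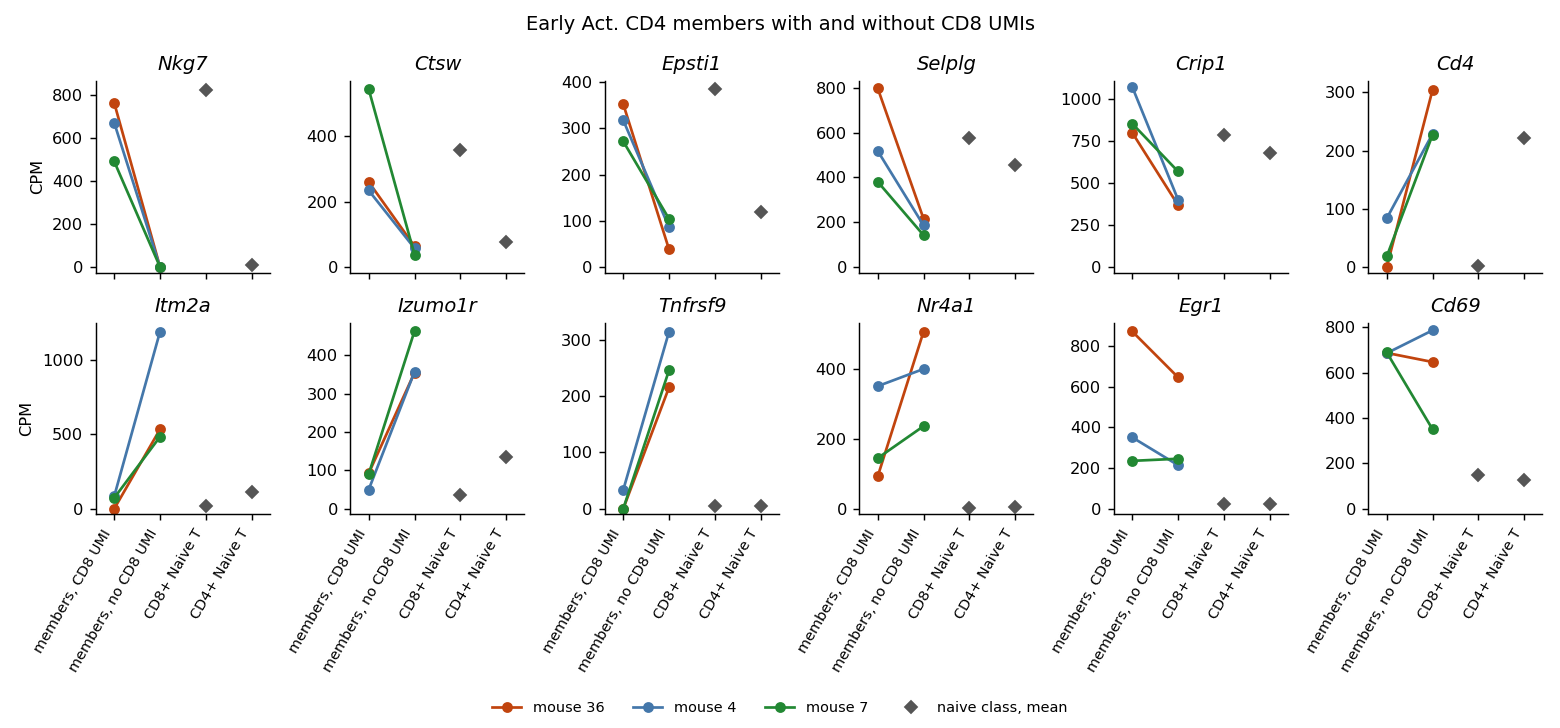
CPM (linear axes) of 12 genes in members with and without a CD8 UMI, joined within mice 36, 4 and 7, with the 7-mouse means of both naive classes as diamonds. Nkg7, Ctsw, Epsti1, Selplg and Crip1 fall and Cd4, Itm2a, Izumo1r and Tnfrsf9 rise towards the members without a CD8 UMI in each mouse, while Egr1 and Cd69 do not move one way in all 3.

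Genes that passed between the kinds mostly had the sign of the difference between naive CD8 and CD4 T cells. Of the 25 genes that passed apart from T cell receptor segments, 24 (96%) had the same sign in CD8+ Naive T over CD4+ Naive T cells, against 59.9% of all genes tested. The exception was Ccnd2, which was level between the naive classes, at 373 CPM in CD8+ Naive T and 372 CPM in CD4+ Naive T cells. Only 10 of the 25 were over 2-fold apart between the naive classes. The 25 include genes, such as Nkg7 and Tnfrsf9, that met the filter on low counts only in the kind where they were high. Most of all genes tested did not pass, so the 59.9% is not a like background. The 96% is therefore a description and gives no separate support. Pooled over 7 mice, B cell markers summed to 369 CPM in members with and 165 CPM in members without a CD8 UMI, and red cell markers to 258 and 303 CPM. The NKT and innate-like list summed to 576 CPM in members with and 136 CPM in members without a CD8 UMI, with Zbtb16 and Klrb1c at 0. Of its genes, Ly6c2 averaged 418 CPM and Klrd1 177 CPM in CD8+ Naive T cells. The part of these lists in the result was not tested. The count rested on mouse 36: it was 0 of 934 genes without that mouse, with 84 at an unadjusted p under 0.05, 45 without mouse 4 and 25 without mouse 7. DESeq2 called 5. All 7 mice together, an unplanned setting with at least 3 cells of each kind per mouse, gave 32 of 609 genes (5.25%). In it mice 8, 6 and 97 gave only 3, 4 and 4 members with a CD8 UMI.

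**Figure D4:**
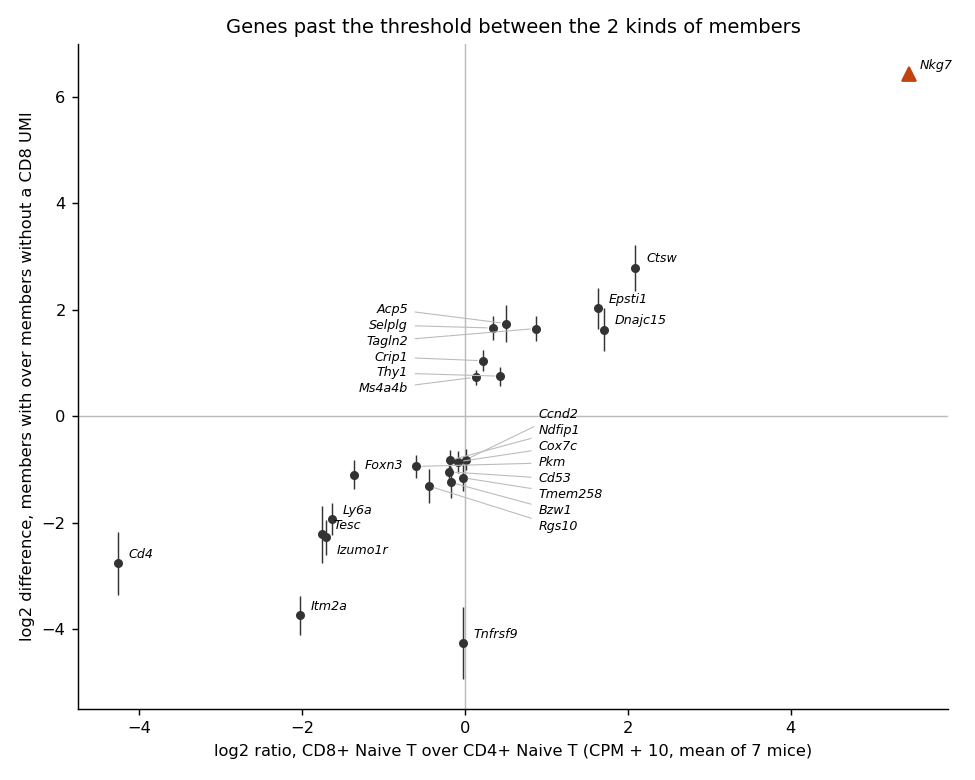
Log2 differences between members with and without a CD8 UMI (vertical axis, bars are standard errors) against the log2 ratio of CD8+ Naive T over CD4+ Naive T cells (horizontal axis) for the 25 genes that passed. Nkg7, at 0 in the members without a CD8 UMI, is drawn as a triangle with 3 UMIs set for them; 24 genes lie at the lower left or upper right of the crossing zero lines, with Tnfrsf9 close to the vertical line.

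Between genotypes, members of Aire-DTR and WT mice differed in 1 of 1246 genes (0.0803%; edgeR quasi-likelihood test with pool as a term), while 57 had an unadjusted p under 0.05 and DESeq2 called 0. The gene was Trbv15, a T cell receptor beta V segment, which is named here after its values were seen. Its UMIs numbered 0 for mouse 8, 19 (1 cell) for mouse 36, 57 (5 cells) for mouse 4 and 34 (2 cells) for mouse 7, all Aire-DTR, and 0 for each WT mouse. That was 8 of 131 Aire-DTR members and 0 of 57 WT members, which allows a share of up to 5.26%. All its UMIs came from 8 Aire-DTR cells, through which alone it passed the filter on low counts, so no p is given for it. Among CD4+ Naive T cells, 48 of 1138 Aire-DTR and 27 of 565 WT cells had it. No gene was called without mouse 36 or without mouse 4, while 7 were called without mouse 1, 4 without mouse 7 and 2 without mouse 97.

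The early activation genes did not pass between genotypes. Nr4a1 averaged 293 ± 79.1 CPM in Aire-DTR (n = 4) and 359.8 ± 356 CPM in WT mice (n = 3), and the log2 difference was -0.18 (SE 0.351; adjusted p = 0.969 in edgeR). WT mouse 97 had the highest value and WT mouse 6 the lowest, so the groups overlapped. Egr1 averaged 415 ± 226 CPM in Aire-DTR and 454 ± 37.7 CPM in WT mice (-0.11, SE 0.255, adjusted p = 0.971), and Cd69 averaged 538 ± 205 and 566 ± 314 CPM. Of 16 activation genes tested, 7 were higher and 9 lower in Aire-DTR mice and none passed, with a median of -0.05 against 0.01 over all genes. No gene of the other lists passed either.

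The genes next in order of p did not pass. Hsp90ab1, a cytosolic chaperone gene, was at 1857, 2208, 2583 and 2823 CPM in Aire-DTR mice 8, 36, 4 and 7 and at 3310.2, 3116 and 3049 CPM in WT mice 6, 97 and 1 (log2 difference -0.41, SE 0.105, edgeR adjusted p = 0.389). The groups did not overlap, as held for 77 of all 1246 genes tested (6.18%), and it was lower in Aire-DTR mice in each pool. Nfkbia, the inhibitor of NF-kB that its own activity induces, was at 1623, 1251, 909.7 and 908 CPM in Aire-DTR mice 8, 36, 4 and 7 and at 568, 443 and 868 CPM in WT mice 6, 97 and 1 (0.86, SE 0.228, adjusted p = 0.389), also without overlap. Sept1 averaged 595 ± 67.7 CPM in Aire-DTR and 374 ± 42.4 CPM in WT mice (0.72, adjusted p = 0.389). Rsrp1 averaged 188 ± 11.7 CPM in Aire-DTR and 77.5 ± 27.0 CPM in WT mice.

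Between nodes, 0 of 424 genes (0.0%) passed in the 6 mice with at least 5 members in each node, with the mouse as a block (edgeR quasi-likelihood test), while 28 had an unadjusted p under 0.05 and DESeq2 called 1. Tmsb10, the actin-binding thymosin beta 10 gene, came closest, with 12694 ± 1387 CPM in udLN and 16369 ± 1768 CPM in brLN (log2 difference -0.34, SE 0.073, edgeR adjusted p = 0.0546). It was lower in udLN in 6 of 6 mice. It passed without mouse 36 (edgeR adjusted p = 0.00725) and without mouse 7 (0.0282), and its adjusted p reached 0.570 without mouse 8. It also passed with all barcodes as deposited (edgeR adjusted p = 0.0104), where the copied cells count again and add no new information. Nfkbia averaged 1587 ± 1064 CPM in udLN and 781 ± 206 CPM in brLN and was higher in udLN in 5 of 6 mice (0.90, SE 0.262, adjusted p = 0.346). Crip1 (log2 difference 0.68), Vim (0.92) and Tra2b (0.72) followed. Egr1 averaged 553 ± 220.1 CPM in udLN and 348 ± 228 CPM in brLN, higher in udLN in 5 of 6 mice (0.67, SE 0.262, adjusted p = 0.652). Only 5 to 15 members per mouse were in udLN, so sums there held 50 cells over all mice.

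The share of the class among CD4 T cells did not differ between genotypes beyond the spread between mice. In brLN it was 7.69%, 8.99%, 8.13% and 8.53% in Aire-DTR mice 8, 36, 4 and 7 and 9.52%, 8.90% and 5.64% in WT mice 6, 97 and 1. The means were 8.33 ± 0.553% in Aire-DTR (n = 4) and 8.02 ± 2.09% in WT mice (n = 3; two-sided exact permutation p = 0.8; edgeR log2 difference 0.22, adjusted p over 6 classes = 0.483). In udLN the share was 10.5%, 3.23%, 5.12% and 6.61% in Aire-DTR mice 8, 36, 4 and 7 and 9.09%, 0% and 5.16% in WT mice 6, 97 and 1 (exact permutation p = 0.629; edgeR log2 difference 0.18, adjusted p = 0.781). The 0% of mouse 97 came from 9 CD4 T cells. Over both nodes the means were 7.71 ± 1.10% in Aire-DTR and 7.80 ± 2.06% in WT mice (exact permutation p = 0.971). With 4 against 3 mice the permutation cannot give less than 0.0571.

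**Figure D5:**
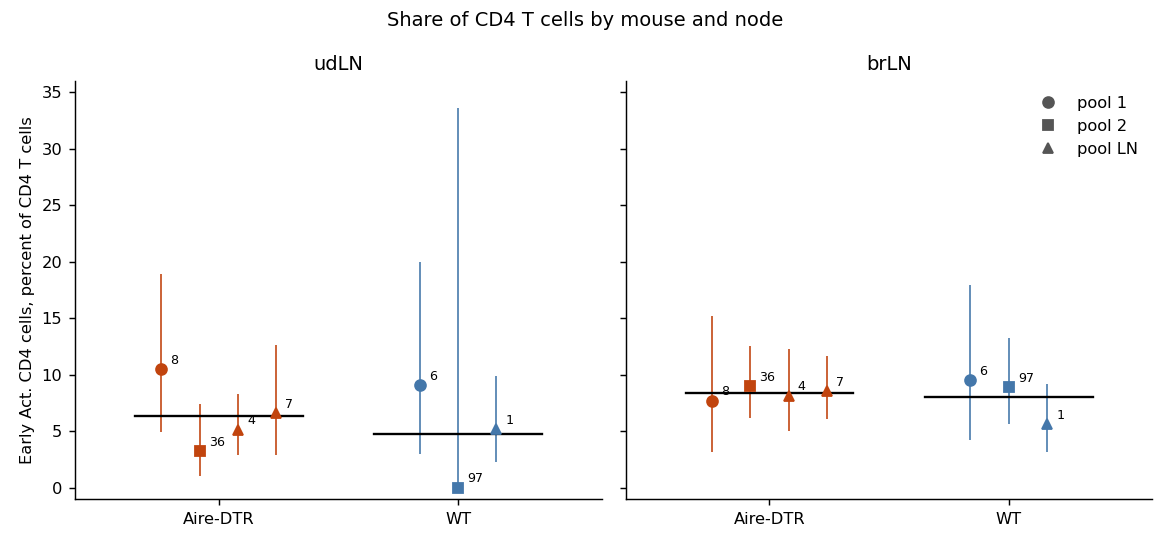
Early Act. CD4 cells as a percent of CD4 T cells per mouse in udLN (left) and brLN (right), with 95% Clopper-Pearson intervals, mouse numbers, a symbol per pool and bars at the genotype means. Aire-DTR and WT mice overlap in both nodes, and WT mouse 97 has 0 members among 9 CD4 T cells in udLN.

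Between nodes the class held 5.67 ± 3.52% of CD4 T cells in udLN and 8.20 ± 1.28% in brLN (n = 7 mice; log2 difference -0.49, SE 0.218, edgeR adjusted p = 0.0861; two-sided exact permutation of pairs p = 0.125). It was lower in udLN in every mouse except mouse 8. Without mouse 8 the edgeR difference was -0.62 with an adjusted p of 0.0265. With all barcodes as deposited, where the copied cells count again and add no new information, it was -0.54 with an adjusted p of 0.0343. Without mouse 36 it was -0.30 with an adjusted p of 0.352. Without mouse 97, whose udLN gave 9 CD4 T cells, the shares were 6.61 ± 2.71% in udLN and 8.08 ± 1.36% in brLN (n = 6 mice; exact permutation of pairs p = 0.25). As a share of cells with a CD4 subset the class held 14.9 ± 8.67% in udLN and 26.9 ± 6.17% in brLN (-0.77, edgeR adjusted p = 0.00914; exact permutation p = 0.03125), where the other subsets of the denominator move as well.

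Members with a CD8 UMI occurred in every mouse. Their share of the class was 18.8%, 38.9%, 40.0% and 31.8% in Aire-DTR mice 8, 36, 4 and 7 and 30.8%, 19.0% and 39.1% in WT mice 6, 97 and 1. The means were 32.4 ± 9.77% in Aire-DTR and 29.6 ± 10.1% in WT mice (two-sided exact permutation p = 0.629). The order of the genotypes differed between pools: it was lower in Aire-DTR than in WT in pool 1 (18.8% against 30.8%), higher in pool 2 (38.9% against 19.0%), and on both sides in pool LN. In the 6 mice with 5 or more members in each node it was 35.2 ± 15.8% in udLN and 30.2 ± 14.1% in brLN (exact permutation p = 0.719). Counted with CD8 T cells, members with a CD8 UMI made up 62 of 2331 (2.66%), and the others, counted with CD4 T cells, 126 of 2502 (5.04%). The 62 include 7 with a Cd4 UMI as well and 9 with only 1 CD8 UMI. The 126 include 64 with neither transcript. The first share averaged 2.86 ± 1.05% in Aire-DTR and 2.56 ± 1.51% in WT mice (exact permutation p = 0.743), and the second 5.42 ± 1.54% in Aire-DTR and 5.71 ± 2.01% in WT mice (p = 0.914).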

How the data were processed

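Droplet-based single-cell RNA sequencing gave UMI counts per cell and gene, which the authors deposited as raw counts with tables of each cell's mouse, tissue, genotype and cell type. The submitters' processing notes name the build GRCm38 and the tools Seurat, Scanpy 1.7.0, kallisto 0.46.1 and bustools 0.40.0, with no role given. How cells were filtered and named, and whether doublets were removed, is not given in the sources used here, and no doublets were removed here. Per the labels, live CD45+ CD3+ cells were sorted, 160000 cells of pools 1 and 2 each and 13200 of pool LN were split over 2 wells, and uterine cells of pools 1 and 2 were not analysed here. GEO's samples are these 6 wells, so genotype, mouse and node come from the deposited cell table. The authors' separate processed matrices were not used here.

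Cells of 1 of the copied runs were left out, which left 22833288 UMIs over 14125 genes. Counts were summed per mouse, or per mouse and node or kind of cell, where a sum had at least 10 cells. In both nodes only mouse 4 reached 10, so 5 cells were required between nodes, chosen after seeing the data. Where stated, unplanned alternatives between kinds used sums of at least 3 cells. Sums were tested in R 4.3.3 with edgeR 4.0.16 (filterByExpr, TMM, glmQLFit, glmQLFTest, Benjamini-Hochberg), with pool as a term between genotypes and the mouse as a block between nodes and kinds; limma 3.58.1 and DESeq2 1.42.0 were alternatives. Simulated data had the same spread for every gene (dispersion 0.1), no mouse or pool effects, and changes only in genes past the filter. There, 29% of 2-fold and 70.0% of 4-fold changes were recovered between genotypes (1163 genes, 3 false calls). The shares were 66% and 79% between nodes (463 genes, 3 false calls) and 29% and 78% between kinds (920 genes, 4 false calls). With a wider spread in the real sums, recovery there may be lower. Mice are separate animals, and shares were compared over mice by exact permutation (scipy 1.17.1, Python 3.11.15) and edgeR on cell numbers. Descriptive log2 ratios add 10 CPM. Gene coordinates follow GENCODE release 21 for mouse.

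The members and gene lists were chosen with earlier results of these data known. Genes named in a test are up to 10 per direction by smallest p among those that passed, or the 5 with the smallest p where fewer than 5 passed, and list members; in descriptions they come from the 10 with the largest ratio per direction among genes of at least 100 CPM in the higher class with the same sign in every mouse with at least 10 cells of both classes. T cell receptor segments are counted, and named only where stated.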

Additional observations from a re-analysis of the deposited data

How the results depend on the processing

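Each result was recomputed under 557 alternatives in all, of which 121 concern the 9 comparisons of the design. Of the 121, 82 kept the result. For counts of genes this means a like size, and for shares the same direction and side of the threshold. Of the rest, 27 counts of genes moved, 9 differences in shares changed direction and 3 came to pass the threshold. The genotype count of 1 gene became 0 with DESeq2, 0 among CD4+ Mem T members and 0 without the pool term, 5 without the filter on low counts, and 0 to 7 when a mouse was left out. The node count of 0 became 1 with RLE scaling, 1 with DESeq2, 1 with cells of at least 1000 UMIs, 1 with all barcodes as deposited (also at 10 cells), 3 among CD4+ Mem T members, 5 without the filter and 0 to 1 when a mouse was left out. The count of 29 between kinds became 5 with DESeq2, 55 without the filter, 53 with cells of at least 1000 UMIs and 18 with a split by Cd8b1 only. It was 11 of 423 genes for members with CD8 against members with Cd4 transcripts only, in sums of at least 3 cells. It was 1 of 221 after thinning to 1000 UMIs, where fewer genes were tested, and 0 to 45 when a mouse was left out. Other causes were not tested.

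As a share of cells with a CD4 subset, the genotype difference was -0.0898 (log2) in brLN and -0.15 over both nodes, and the node difference -0.77; with all barcodes as deposited the node difference was -0.54. In udLN the genotype difference was -0.0411 with limma and -0.0703 without the pool term. Leaving out a mouse gave -0.0596 to 0.36 in brLN, 0.13 to 0.33 in udLN, -0.18 to 0.28 over both nodes, and -0.62 to -0.30 between nodes. For the share of members with a CD8 UMI it gave -2.59 to 7.46 percentage points between genotypes and -3.41 to 10.5 between nodes. None of these genotype differences in shares passed the threshold under any of them.

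The pairing by mouse comes from the deposited cell table. With no mouse block, 0 genes were called between nodes and 27 between kinds, and the node difference in the share was -0.51. The replicate numbers of GEO's samples name wells of a pool and pair no mice. Of 436 alternatives for single genes and levels, 347 kept their call, 73 lost it, 13 gained it and 0 changed direction. Thinning to 1000 UMIs lowered the percent of members with a UMI to 11.2% for Cd4, 18.2% for Nr4a1 and 25.1% for Egr1, which depth limits.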
